A study of Mus musculus with 6 samples.

Results

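The nucleus-encoded genes described here serve the mitochondrial use of iron: the iron carriers Slc25a37 and Slc25a28, the heme synthesis enzymes Alas1, Cpox and Fech, the heme-degrading enzyme Hmox1, and the iron-sulphur cluster assembly genes Nfs1, Iscu and Glrx5. They were taken by gene name and make up 9 of the 19832 genes in the deposited table, with 1 row each. Their transcripts were measured by RNA sequencing in EO771, an established mouse mammary tumour line of C57BL/6 origin. The first group was 3 libraries from EO771 cells labelled as control, and the second was 3 libraries from EO771 cells treated with recombinant lipocalin-2 protein (LCN2). The sources used here give no dose, exposure time, medium or culture day, and name no genetic change or further agent for either group. Libraries are called control 1 to 3 and LCN2 1 to 3 by their replicate number. Nothing in the labels says that replicates were separate cultures, so p-values measure the spread between these libraries, which may be technical.

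Iron enters the mitochondrial matrix through the mitoferrins of the inner membrane, and there it is built into heme and into iron-sulphur clusters. Heme synthesis begins in the matrix with ALAS, passes through the cytosol, returns to the mitochondrion at CPOX and ends when FECH inserts iron into protoporphyrin. Clusters are formed on the scaffold ISCU from iron and from sulphur that NFS1 takes from cysteine, and GLRX5 passes them on. LCN2 is a secreted protein that binds siderophores, small iron chelators, which links the treatment to iron handling.

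With LCN2, both mitoferrin transcripts and Cpox were higher, and no gene of the 9 passed the test as lower. Slc25a28 was higher by 21.9%, Slc25a37 by 17.5% and Cpox by 16.5% of the control mean. The other 6 genes, Alas1, Fech, Hmox1, Nfs1, Iscu and Glrx5, had lower means with LCN2, with differences from the control mean of -18.4% (Fech) to -4.97% (Hmox1), and did not pass. A call here is an adjusted p under 0.05 in limma, a linear model fitted to all 10309 genes whose mean reached 1 FPKM (fragments per kilobase of transcript, scaled to library size, the unit inferred for the table), and all 9 genes were tested. Of all tested genes 21.5% were called, 11.8% as higher and 9.73% as lower. The 3 calls among 9 genes are to be read against that share, and the median log2 fold change was -0.08 for the 9 genes and 0.0008 for all tested genes. These calls depended on libraries being scaled to each other. With values as deposited, 0 of the 9 genes were called higher and 2, Fech and Nfs1, lower, where 23% of all genes were called (6.72% higher and 16.3% lower). After scaling to column sums, median-ratio scaling or quantile normalization the same 3 genes were called higher (adjusted p of up to 0.0478). There 21.7% to 22.1% of all genes were called, and Nfs1 was called lower with column sums (adjusted p = 0.0468). At an unadjusted p under 0.05 values as deposited gave 3 of the 9 genes as higher (Slc25a37, Slc25a28 and Cpox) and 5 as lower. In the reported setting 0 of the 9 genes were called lower, and 2 with lower means (Fech and Nfs1) had an unadjusted p under 0.05. The share of all tested genes under that unadjusted cut is not given here. Counts at that cut, here and below, are therefore not read as a result about the 9 genes.

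**Figure D1:**
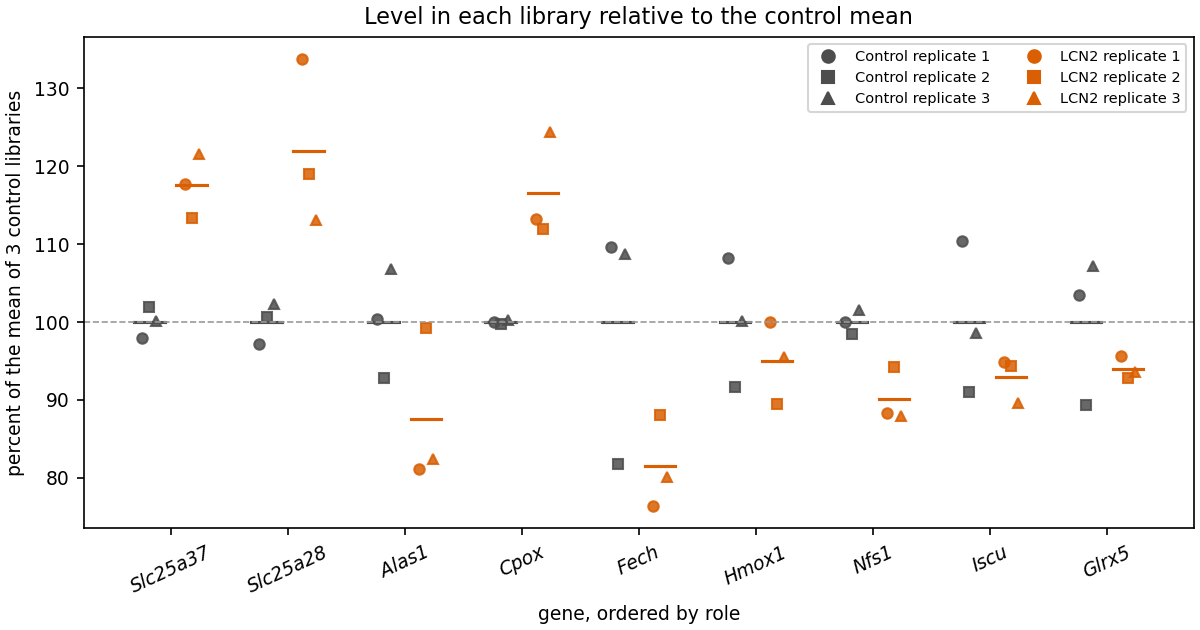
Level of each gene in each library as a percent of the mean of the 3 control libraries (vertical axis), for genes ordered by role (horizontal axis). Grey symbols are control and orange symbols LCN2 libraries, the symbol shape gives the replicate number and horizontal lines are group means. The LCN2 libraries lie wholly above the controls for Slc25a37, Slc25a28 and Cpox and wholly below them for Nfs1.

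Promoter sequences were read from RefSeq (GRCm38.p6) for the 2 called genes that the table of promoters holds. They show the region ahead of the start site of these genes, which were each called higher. Of the 9 genes, 5 matched that table, with 6 promoters, and each sequence is the 250 bases before the start, 5′ to 3′ on the gene's own strand. The window of Slc25a28 is chr19:43674882-43675131 on the minus strand and that of Cpox chr16:58669958-58670207 on the plus strand.
Slc25a28: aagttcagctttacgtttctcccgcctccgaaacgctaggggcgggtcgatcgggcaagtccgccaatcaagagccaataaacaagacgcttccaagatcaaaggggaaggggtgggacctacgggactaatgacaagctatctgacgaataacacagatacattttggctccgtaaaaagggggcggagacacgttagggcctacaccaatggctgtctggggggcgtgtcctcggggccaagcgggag
Cpox: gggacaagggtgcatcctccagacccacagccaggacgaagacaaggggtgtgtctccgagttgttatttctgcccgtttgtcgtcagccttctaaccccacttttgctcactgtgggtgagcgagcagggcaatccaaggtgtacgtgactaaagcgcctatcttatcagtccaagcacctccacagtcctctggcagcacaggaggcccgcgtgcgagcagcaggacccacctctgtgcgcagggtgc
All were searched on both strands for TGACNNNGC (the core of the antioxidant response element), TGATGNAAT (an element bound by C/EBP and ATF proteins), CACGTG (the E-box) and the core bound by NRF1. None of these occurred in the windows of Slc25a28, Cpox or Glrx5. These windows held 17, 11 and 21 CpG dinucleotides, against a median of 6 over 32817 promoters. The Nfs1 window held 30, and the Alas1 windows 42 and 16.

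The window of Nfs1 held the antioxidant element core at 2 places, and a window of Alas1 held the NRF1 core at 2 places. These stretches are shown with the match in capitals, at the distance in bases from the start site to the first base of the match.
Nfs1, 244 bases before the start: gtgaggGCCTGGTCAccagccgtgg
Nfs1, 205 bases before the start: gggacgcacaGCAGGGTCAcatagcaccc
Alas1, 224 bases before the start: gcttcggcgcGCGCGTGCGCgcggcaggcc
Alas1, 195 bases before the start: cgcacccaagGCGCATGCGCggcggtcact
The matches lie at chr2:156144422-156144430 and chr2:156144383-156144391 for Nfs1, and at chr9:106247945-106247954 and chr9:106247916-106247925 for Alas1. The antioxidant element core was present in 10.2% of all promoters of this length, the NRF1 core in 3.73%, the C/EBP-ATF element in 0.817% and the E-box in 6.02%. These shares are over promoters of any base composition. Bases G and C made up 74.4% of the Alas1 window with matches and 70.8% of the Nfs1 window, against a median of 52.4%. The Nfs1 window overlaps an annotated exon of Romo1 on the other strand, and the Alas1 windows overlap exons of Alas1 itself and of 4930500F10Rik. A match describes letters only, and matches of different motifs did not overlap.

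The libraries were similar in size, with deposited values summing to between 391569 and 410808, and the scaling by trimmed mean of M-values (TMM) divided them by between 0.970 and 1.06. All levels given from here on are FPKM after this scaling. On the first principal component LCN2 2 lay at 4.34, between the other LCN2 libraries (15.7 and 16.5) and the controls (-17.3 to -8.09). Mammary epithelial markers fitted the line in part: 7 of 9 reached a mean of 1 FPKM over the 6 libraries, but Cdh1 was between 0.0980 and 0.215 FPKM in every library and Elf5 was listed at 0. Their sum was 1325 to 1346 FPKM in control and 1310 to 1347 FPKM in LCN2 libraries, while single markers were called in both directions, with Krt8 (302 FPKM in control and 250 FPKM with LCN2, adjusted p = 0.00957) and Krt19 (223 and 191 FPKM, 0.0226) lower and Krt18 (677 and 763 FPKM, 0.0311) and Cldn4 (1.16 and 4.08 FPKM, 0.00558) higher. Erythroid markers, which matter for heme genes, were near 0: none of the 7 listed genes reached 1 FPKM (0 of 7), their sum was 1.01 to 1.75 FPKM in control and 0.977 to 1.58 FPKM in LCN2 libraries, and the erythroid ALAS gene Alas2 stayed at or under 0.224 FPKM. Of 5 mast cell markers 4 were listed at 0, and 0 of 4 endothelial markers reached 1 FPKM. The sum of 5 leukocyte markers was 9.10 to 10.5 FPKM in control and 10.01 to 10.8 FPKM in LCN2 libraries. Of these Cd68 alone reached a mean of 1 FPKM over the 6 libraries, and Itgam was at 1.05 to 1.34 FPKM in control and 0.638 to 0.864 FPKM in LCN2 libraries, too low to be tested. The sum of 4 fibroblast markers was 488 to 513 FPKM in control and 587 to 631 FPKM in LCN2 libraries, nearly all of it from Dcn, which was called higher (log2 fold change 0.30, adjusted p = 0.00623). Pdgfra was at 3.67 to 4.57 FPKM in control and 3.52 to 3.90 FPKM in LCN2 libraries (-0.15, adjusted p = 0.236), Thy1 was listed at 0 and Col1a1 was between 0.0250 and 0.138 FPKM. The part of these markers in the results was not tested. In bulk libraries a change in the share of expressing cells and a change in RNA per cell cannot be told apart.

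Among the 9 genes the mitoferrins had the highest levels and Alas1 the lowest. In control cells the order by mean FPKM was Slc25a28 (40.0), Slc25a37 (32.1), Nfs1 (21.2), Iscu (21.1), Glrx5 (19.5), Fech (19.3), Cpox (17.1), Hmox1 (15.5) and Alas1 (6.06). Neighbours from Nfs1 to Cpox overlapped in their ranges over the control libraries, while the mitoferrins, Cpox against Hmox1, and Hmox1 against Alas1 did not. With LCN2, Cpox was the third at 20.0 FPKM, overlapping Iscu, and Fech was the seventh at 15.8 FPKM, overlapping Hmox1. Among all tested genes the mean levels of Slc25a28 and Slc25a37 lay at percentiles 83.6 and 78.5, that of Alas1 at percentile 25.2, and those of the other 6 genes between percentiles 54.7 and 63.6.

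**Figure D2:**
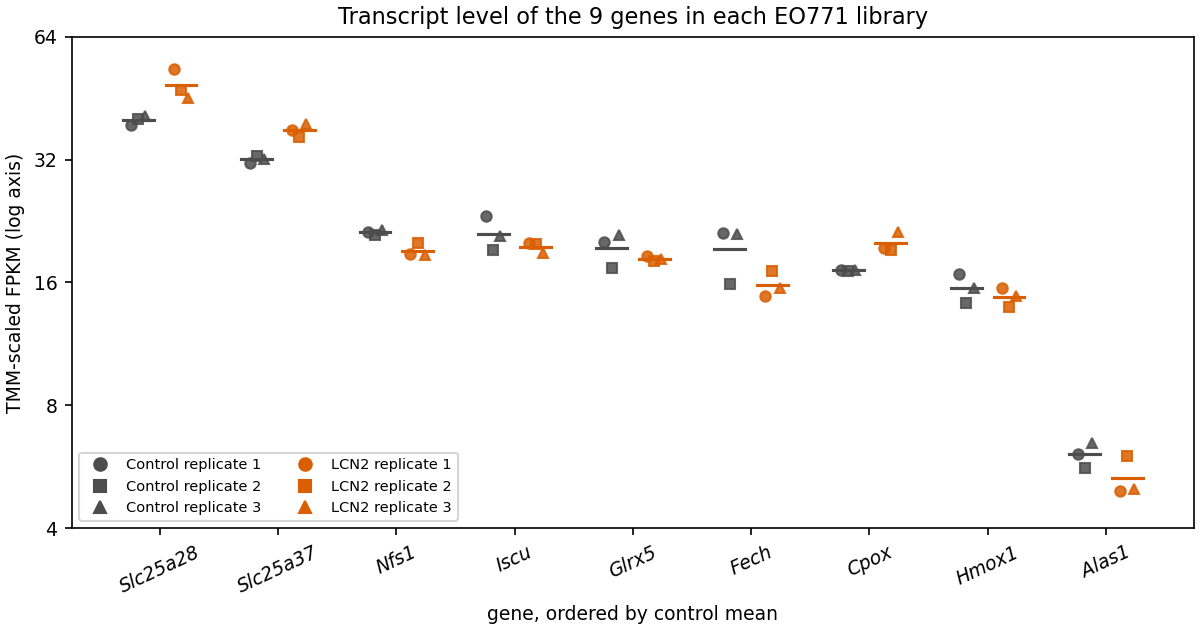
TMM-scaled FPKM of each gene in each library on a log axis (vertical), with genes ordered by their control mean (horizontal). Points are libraries, with the shape giving the replicate number, and lines are group means; control means run from 40.0 FPKM for Slc25a28 to 6.06 FPKM for Alas1.

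The mitoferrins carry iron across the inner mitochondrial membrane, Slc25a37 (mitoferrin 1) being the form used by erythroid cells and Slc25a28 (mitoferrin 2) the form found in most tissues. Slc25a37 (chromosome 14, 69241848 to 69285112, minus strand, GRCm38) was at 31.5, 32.7 and 32.1 FPKM in the control libraries and at 37.8, 36.4 and 39.0 FPKM in the LCN2 libraries, in the order of replicates 1 to 3. All LCN2 libraries lay above all controls, by at least 3.65 FPKM. The means were 32.1 ± 0.639 and 37.7 ± 1.33 FPKM (SD, n = 3 each), a log2 fold change of 0.23 (SE 0.04, adjusted p = 0.0160 in limma). Its exons overlap those of the antisense models Gm27223 and Gm31748, and the sources used here do not state strandedness, so reads of the 2 strands cannot be told apart.

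Slc25a28 (chromosome 19, 43663801 to 43674881, minus strand) was at 38.8, 40.2 and 40.8 FPKM in control and 53.4, 47.5 and 45.2 FPKM in LCN2 libraries. LCN2 1 was the highest, and the groups again did not overlap. The means were 40.0 ± 1.04 and 48.7 ± 4.25 FPKM (SD, n = 3 each), a log2 fold change of 0.28 (SE 0.06, adjusted p = 0.0253). Neither mitoferrin call held with values as deposited (0.16 with adjusted p = 0.0656 for Slc25a37, 0.21 with adjusted p = 0.0577 for Slc25a28). Slc25a37 was also not called when control 1 or 3 or LCN2 1 or 3 was left out (adjusted p of up to 0.0701), nor Slc25a28 when control 1 or 3 or LCN2 1 was left out (up to 0.0849).

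The ratio of the mitoferrins within a library does not depend on the scaling between libraries, apart from the pseudocount. As log2 of Slc25a37 over Slc25a28, each plus 1, it was -0.29, -0.29 and -0.34 in control and -0.49, -0.38 and -0.21 in LCN2 libraries. The control libraries were close together and the LCN2 libraries spread to both sides of them. The difference of -0.05 was within the spread between replicates (two-sided exact permutation p = 0.7, Benjamini-Hochberg adjusted p = 0.7 over 2 ratios; the smallest p that 3 against 3 allows is 0.1), and without LCN2 1 it was 0.016.

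Of the 8 other tested genes for transport of iron, porphyrins and related metabolites at the mitochondrial membranes, 1 rose and 2 fell. Slc25a40, a carrier linked to mitochondrial glutathione import, rose from 7.42 ± 0.165 FPKM in control to 9.70 ± 0.703 FPKM with LCN2 (log2 fold change 0.35, adjusted p = 0.0143). Slc25a38, the carrier that brings glycine into the matrix for the ALAS step, fell from 9.40 ± 0.222 FPKM in control to 7.47 ± 0.484 FPKM with LCN2 (log2 fold change -0.30, adjusted p = 0.0183). Tmem14c, which serves porphyrin import, fell by 0.14 on the log2 scale (adjusted p = 0.0469). Tmem14c was not called in any fit that left out 1 library, Slc25a38 not when control 1 or 3 or LCN2 1 was left out, and Slc25a40 not when control 1 or 3 or LCN2 1 or 3 was left out. Ftmt, the mitochondrial ferritin, was listed at 0 in every library.

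In heme synthesis Cpox rose, while Alas1 at the start and Fech at the end had lower means and did not pass. Cpox, coproporphyrinogen oxidase (chromosome 16, 58670292 to 58717636, plus strand), was at 17.1, 17.1 and 17.2 FPKM in control and 19.4, 19.2 and 21.3 FPKM in LCN2 libraries. The controls were almost identical after scaling and every LCN2 library lay above them. The means were 17.1 ± 0.0476 and 20.0 ± 1.18 FPKM (SD, n = 3 each), a log2 fold change of 0.21 (SE 0.05, adjusted p = 0.0325). The call was lost with values as deposited (0.15, adjusted p = 0.108) and when any library other than LCN2 2 was left out (adjusted p of up to 0.0986). An exon of Gpr15 lies antisense to Cpox.

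Alas1, the housekeeping form of the rate-limiting enzyme of heme synthesis (chromosome 9, 106233455 to 106248654, minus strand), was at 6.08, 5.63 and 6.47 FPKM in control and 4.92, 6.01 and 4.995 FPKM in LCN2 libraries. LCN2 1 and LCN2 3 lay below all controls and LCN2 2 lay among them. The log2 fold change was -0.16 (95% interval -0.36 to 0.03, adjusted p = 0.193), and without LCN2 2 it was -0.24 (adjusted p = 0.0480). Exons of 4930500F10Rik lie antisense to Alas1.

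Fech, ferrochelatase (chromosome 18, 64452914 to 64490251, minus strand), was at 21.2, 15.8 and 21.02 FPKM in control and 14.8, 17.0 and 15.5 FPKM in LCN2 libraries. Control 2 lay within the LCN2 range and the other controls above it. The log2 fold change was -0.27 (95% interval -0.53 to -0.01, adjusted p = 0.120). It was called with values as deposited (-0.33, adjusted p = 0.0418) and without control 2 (-0.40, adjusted p = 0.0202). Control 2 was also the lowest control after scaling for Alas1, Cpox, Hmox1, Nfs1, Iscu and Glrx5. As deposited it was again the lowest control for Alas1, Hmox1, Iscu and Glrx5, but the highest for Cpox (18.2 FPKM) and Nfs1 (22.2 FPKM).

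Of the 6 other tested genes of heme synthesis 0 rose and 1 fell in limma (0 higher and 2 lower at an unadjusted p under 0.05). Alad, the second enzyme of the pathway and by far its most abundant transcript here, fell from 188 ± 2.71 FPKM in control to 170 ± 6.68 FPKM with LCN2 (log2 fold change -0.14, SE 0.04, adjusted p = 0.0403), and the call held in 1 of 6 fits that left out a library, the one without LCN2 2. The log2 fold changes of 2 cytosolic enzymes of the pathway, singled out after they were seen, were 0.08 for Uros (adjusted p = 0.334) and -0.15 for Urod (adjusted p = 0.116). Steps of heme synthesis thus had log2 fold changes of both signs, and among the 9 tested genes of the list Cpox alone was called higher.

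**Figure D3:**
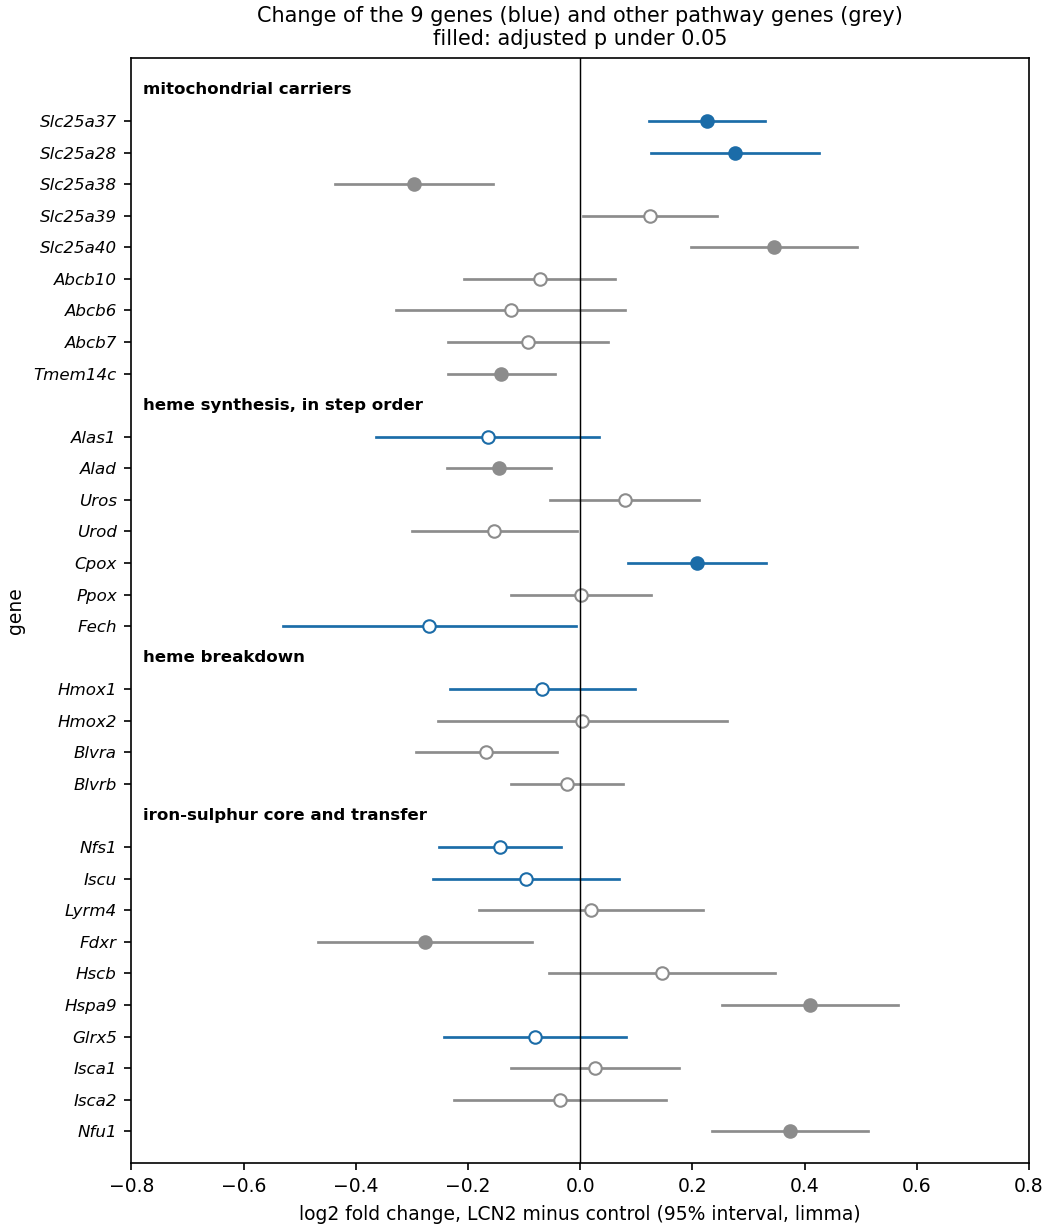
Log2 fold change with LCN2 (horizontal axis, with the 95% interval from limma) for the 9 genes in blue and other genes of their pathways in grey, ordered by role (vertical axis). Filled points have an adjusted p under 0.05; Slc25a37, Slc25a28 and Cpox are filled to the right of 0 and the 6 other blue points are open and to the left of it.

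Hmox1, the inducible heme oxygenase that breaks heme down to biliverdin, carbon monoxide and iron, did not pass the test. It is found on chromosome 8, 75093621 to 75100589 (plus strand), and was at 16.8, 14.2 and 15.5 FPKM in control and 15.5, 13.9 and 14.8 FPKM in LCN2 libraries. The groups overlapped, with a log2 fold change of -0.07 (95% interval -0.23 to 0.10, adjusted p = 0.514), and the value stayed between -0.13 and -0.02 over the other scalings and the fits that left out a library. The log2 ratio of Hmox1 to Alas1 within a library, each plus 1, was 1.33, 1.21 and 1.15 in control and 1.48, 1.09 and 1.40 in LCN2 libraries. LCN2 2 lay below all controls and the other LCN2 libraries above them, and the difference of 0.09 was within the spread (two-sided exact permutation p = 0.5, adjusted p = 0.7 over 2 ratios).

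Hmox1 is a target of the activator NRF2 and of the heme-sensing repressor BACH1. Of 10 other targets of these factors 2 rose and 3 fell. That is 50% called, beside 21.5% of all tested genes. Log2 fold changes were above 0 for 3 of the 10 and below 0 for 7. Osgin1, an oxidative stress response gene, rose from 4.67 ± 0.832 FPKM in control to 8.74 ± 0.958 FPKM with LCN2 (log2 fold change 0.79, adjusted p = 0.00957), and Slc7a11, a subunit of the cystine importer, rose by 0.76 (adjusted p = 0.0196). Fth1, the ferritin heavy chain, fell from 842 ± 10.5 FPKM in control to 703 ± 13.3 FPKM with LCN2 (log2 fold change -0.26, adjusted p = 0.00558), and the sulfiredoxin gene Srxn1 fell by 0.32 (adjusted p = 0.0160). Gclm, singled out after its value was seen, fell by 0.31 (adjusted p = 0.0352). Osgin1 and Fth1 were called whichever library was left out, while Slc7a11 and Srxn1 were not called when control 1 or 3 or LCN2 1 or 3 was left out, nor Gclm when control 1 or 2 or LCN2 1 or 3 was left out. With a term for replicate number in the model (the replicate block), Fth1 was called (adjusted p = 0.0409 in limma). Osgin1, Slc7a11, Srxn1 and Gclm were not called there (0.0519 to 0.0718). Exons of Gclm overlap those of the models Gm17494 and Gm6061.

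Of 12 other genes for heme breakdown, heme transport and heme-regulated factors, 1 rose and 1 fell. Nr1d2, a nuclear receptor that binds heme, rose from 12.2 ± 1.42 FPKM in control to 16.2 ± 1.23 FPKM with LCN2 (log2 fold change 0.39, adjusted p = 0.0259). Flvcr2, a membrane transporter of the same family as the heme exporter Flvcr1, fell by 0.24 (adjusted p = 0.0322). Nr1d2 was not called when control 1 or 3 or LCN2 1 or 3 was left out, and Flvcr2 was called only without LCN2 2 among the fits that left out 1 library.

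The iron-sulphur assembly genes Nfs1, Iscu and Glrx5 all had lower means with LCN2 and none was called. Nfs1, the cysteine desulphurase (chromosome 2, 156123639 to 156144186, minus strand), was at 21.2, 20.9 and 21.6 FPKM in control and 18.8, 20.0 and 18.7 FPKM in LCN2 libraries. Every LCN2 library lay below every control, with LCN2 2 nearest to them, at 0.901 FPKM under the lowest control. The means were 21.2 ± 0.329 and 19.1 ± 0.739 FPKM (SD, n = 3 each), a log2 fold change of -0.14 (95% interval -0.25 to -0.03, adjusted p = 0.0648). It was called with values as deposited (-0.20, adjusted p = 0.0369), after scaling to column sums (-0.17, adjusted p = 0.0468) and without LCN2 2 (-0.17, adjusted p = 0.0291). Exons of Nfs1 overlap those of Romo1 on the other strand and of the model Gm28036 on its own strand, so its values are uncertain to that extent.

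Iscu, the scaffold on which clusters form (chromosome 5, 113772748 to 113778288, plus strand), was at 23.3, 19.2 and 20.8 FPKM in control and 20.0, 19.9 and 18.9 FPKM in LCN2 libraries. The groups overlapped through control 2, and the log2 fold change was -0.10 (95% interval -0.26 to 0.07, adjusted p = 0.346). Glrx5, the glutaredoxin that hands clusters to target proteins (chromosome 12, 105032688 to 105042906, plus strand), was at 20.1, 17.4 and 20.9 FPKM in control and 18.6, 18.1 and 18.2 FPKM in LCN2 libraries. The LCN2 libraries were close together and control 2 lay below them, with a log2 fold change of -0.08 (95% interval -0.24 to 0.08, adjusted p = 0.423). With values as deposited, the LCN2 libraries lay wholly below the controls for Iscu, Glrx5 and Alas1 as well as for Nfs1, but Iscu, Glrx5 and Alas1 were not called there either (adjusted p = 0.116, 0.129 and 0.101). The median log2 fold change of all tested genes was -0.06 with those values. The share of all tested genes without overlap as deposited is not given here.

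Of the 16 other tested genes of mitochondrial cluster assembly, 2 rose and 1 fell. Hspa9, the matrix chaperone that helps release clusters from the scaffold, rose from 256 ± 5.78 FPKM in control to 342 ± 33.0 FPKM with LCN2 (log2 fold change 0.41, SE 0.07, adjusted p = 0.0110). Nfu1, which delivers clusters to late-acting target enzymes, rose from 55.0 ± 3.85 FPKM in control to 71.5 ± 3.04 FPKM with LCN2 (log2 fold change 0.37, SE 0.06, adjusted p = 0.0105). Fdxr, the reductase that supplies electrons through ferredoxin, fell by 0.28 (adjusted p = 0.0488). Hspa9 and Nfu1 were not called without LCN2 1 (adjusted p = 0.0551 and 0.0545), and Fdxr was not called in any fit that left out a library, after quantile normalization (0.0517) or when genes down to a mean of 0.1 FPKM were tested (0.0583).

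Over all 84 other listed genes of these pathways and of their targets, 81 were tested, and 8 rose and 11 fell. Their median log2 fold change was -0.0039. That is 23.5% called, beside 21.5% of all tested genes. With no filter on low values Alad, Tmem14c, Fdxr, Flvcr2, Nr1d2 and Gclm were not called (adjusted p = 0.0514 to 0.0870), nor were Alad, Tmem14c and Fdxr without a variance trend (0.0534 to 0.0775), and with values as deposited Urod was called as lower (-0.21, adjusted p = 0.0354). Groups of libraries did not overlap in 4 of the 9 genes, 3 higher and 1 lower with LCN2, where 44.5% of all tested genes did not overlap (23% higher and 21.6% lower).

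The calls among the 9 genes changed when single libraries were left out, which also leaves fewer libraries to test. When control 1, control 3 or LCN2 1 was left out, 0 of the 9 genes were called, where 6.15%, 4.47% and 2.59% of all genes were. Slc25a37, Slc25a28 and Cpox were higher at an unadjusted p under 0.05 in limma in the reported setting and in each of the 16 alternatives. The share of all tested genes under that cut is not given here. Without LCN2 3 only Slc25a28 was called (4.73% of all genes). Without LCN2 2, the library that lay between the groups, 5 were called, Slc25a37, Slc25a28 and Cpox as higher and Nfs1 and Alas1 as lower (30.7% of all genes, 16.1% higher and 14.6% lower). Without control 2, 3 were called, the mitoferrins as higher and Fech as lower (17.4% of all genes, 9.97% higher and 7.38% lower). The direction of each of the 9 genes was the same in all 16 alternatives.

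**Figure D4:**
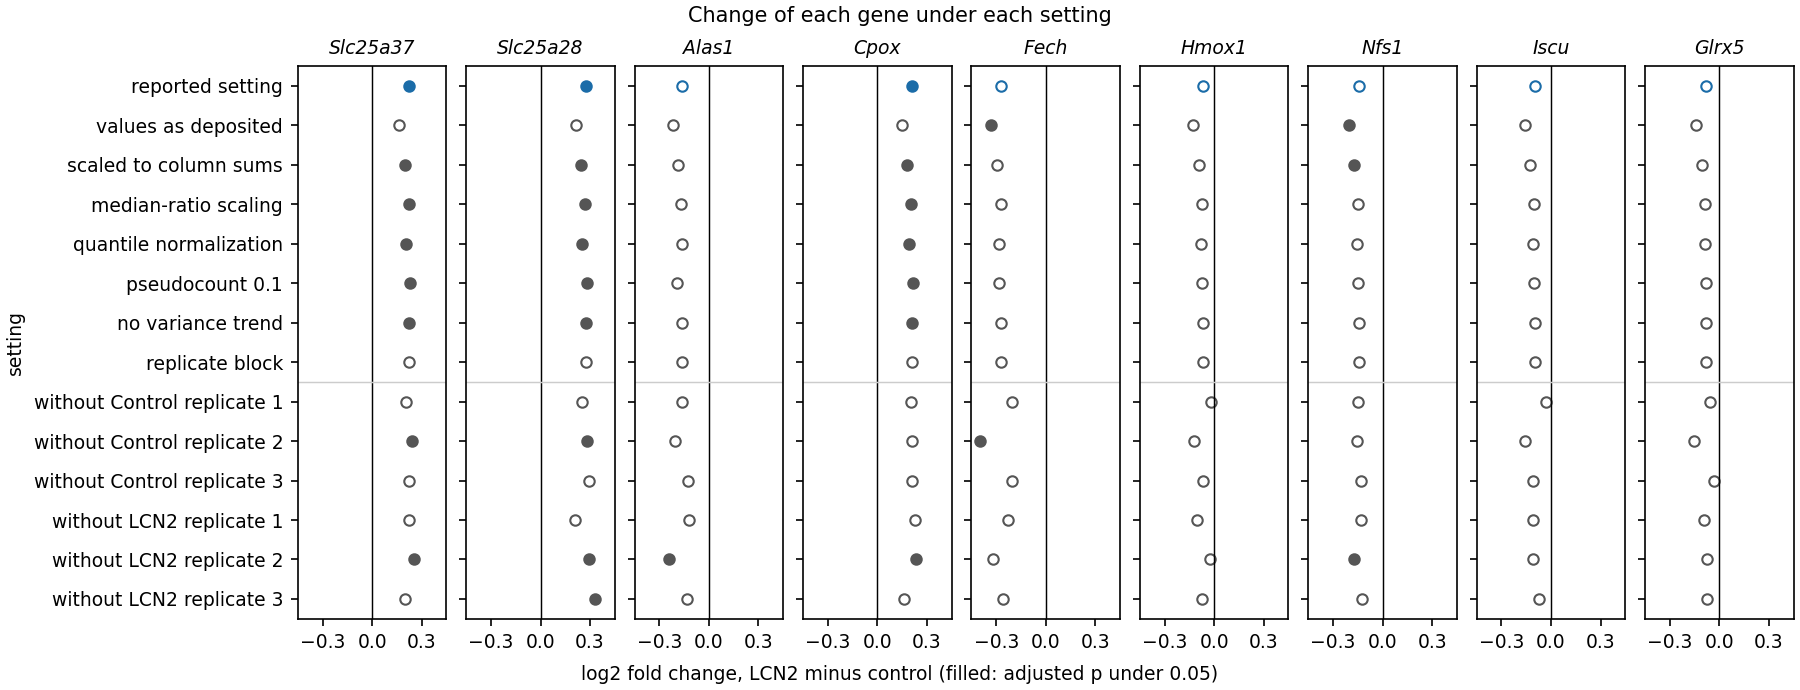
Log2 fold change with LCN2 (horizontal axis) of each of the 9 genes under the reported setting (blue) and 13 of the alternatives (grey), listed on the vertical axis. Filled points have an adjusted p under 0.05. Each gene stays on its side of 0. Points are open for all 9 genes with the replicate block and when control 1 or 3 or LCN2 1 was left out.

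The profiles most like those of the genes with the 2 largest absolute log2 fold changes, Slc25a28 and Fech, were looked for among all tested genes. Likeness was the root mean square difference of log2 values over the 6 libraries, each gene centred on its own mean. Nearest to Slc25a28 were Mkrn1 (0.0276), Dpf2 (0.0309) and Vsig2 (0.0315), whose log2 fold changes were 0.27, 0.29 and 0.27, and of these Mkrn1 and Dpf2 were called (adjusted p = 0.0194 and 0.0195) and Vsig2 was not (0.0822). Nearest to Fech were Prelid2 (0.0453), Tmppe (0.0475) and Bin3 (0.0516), with log2 fold changes of -0.28, -0.25 and -0.21, none of which passed (adjusted p = 0.0814, 0.119 and 0.137). These names describe likeness over 6 libraries only.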

How the data were processed

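EO771 libraries, 3 control and 3 LCN2, were grouped by their titles. The authors deposited 1 table whose name describes raw counts, but 0% of its values above 0 were whole (tolerance 1e-9). Multiplied by the longest GENCODE M21 transcript in kilobases they summed to between 1032628 and 1095179 per library, so the deposited values were treated as FPKM. This unit is inferred. The build was GRCm38, per the submitters' processing notes. The aligner, quantifier and strandedness were not given in the sources used here. Whole reads were not recovered from low values (the commonest ratio between libraries held 2 to 5 of 168 to 205 single-transcript genes within 0.004 log2), so depth is unknown and no counting interval is given. An FPKM listed at 0 can be a failed estimate.

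Values were scaled by TMM without count weights (trimming 0.3 of ratios and 0.05 of levels, on genes whose mean reached 1 FPKM) and tested as log2(FPKM + 1) with limma 3.58.1 in R 4.3.3, with a variance trend, no replicate term, the same mean level as a filter and Benjamini-Hochberg adjustment over 10309 genes, two-sided. Fold changes are on the log2(FPKM + 1) scale, which understates low genes, while percent changes are ratios of mean scaled FPKM. The genes and lists were chosen with earlier results of these data known, as were TMM and limma.

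Named genes are the 9, in each of 7 lists the called genes of smallest adjusted p (up to 4), and the 3 nearest profiles to the 2 genes of largest change. Results on some listed genes are not reported here. Ndor1 has 2 rows, of which the one whose ID carries that name in GENCODE M21 was used. Alternatives were other scalings, pseudocount, filters, no variance trend, a replicate block and leaving out each library. Gene positions are from GENCODE M21.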

Additional observations from a re-analysis of the deposited data

How the results depend on the processing

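Over 16 alternatives the 9 genes kept their direction. Their number called, 3 in the reported setting, ranged from 0 to 5 when each library was left out and was 0 with the replicate block (3 at an unadjusted p under 0.05). For all genes, 2216 in the reported setting, the number called ranged from 267 to 3160 when each library was left out, and was 262 with the replicate block. For the other pathway genes, 19 in the reported setting, it ranged from 2 to 24, was 10 with no filter on low values beyond a value above 0 in 1 library, and was 2 with the replicate block. The labels do not say whether same-numbered libraries were handled together. Deviations of same-numbered libraries from their group means correlated at -0.22, -0.26 and 0.01 across genes. The highest correlations with another number were 0.32, 0.15 and 0.11. With 3 libraries per group these deviations are tied to each other, so they cannot show whether the numbers pair libraries. The block follows the numbers only. The difference of the mitoferrin ratio ranged from -0.13 to 0.016 when each library was left out and changed sign without LCN2 1 (0.016), while the difference of the ratio of Hmox1 to Alas1 stayed above 0 in its 9 alternatives. Without scaling the median of all genes moved from 0.0008 to -0.06, and 693 genes were called higher and 1680 lower, in place of 1213 and 1003. The cause of these differences was not tested. Alternatives for genes outside the 9 were added after seeing the data. Depth is unknown, so what it limits cannot be stated.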

Other observations

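Genes that assemble iron-sulphur clusters in the cytosol and proteins that carry clusters or heme were listed beside the 9 genes. Of 11 tested cytosolic assembly genes 1 rose and 1 fell. Ciao2b, a targeting subunit that hands clusters to DNA and RNA enzymes, rose from 36.2 ± 3.68 FPKM in control to 44.2 ± 1.25 FPKM with LCN2 (SD, n = 3 each; log2 fold change 0.29, adjusted p = 0.0318 in limma), and the scaffold gene Nubp2 fell from 26.9 ± 2.32 FPKM in control to 22.0 ± 0.618 FPKM with LCN2 (log2 fold change -0.28, adjusted p = 0.0268). Ciao2b was not called when control 3, LCN2 1 or LCN2 3 was left out, nor Nubp2 when control 1 or 2 or LCN2 1 or 3 was left out. An exon of 1700082M22Rik overlaps Ciao2b.

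Of 18 tested users of clusters or heme 1 rose and 2 fell. Cox15, which makes the heme A of cytochrome oxidase, fell from 14.2 ± 0.522 FPKM in control to 11.3 ± 0.802 FPKM with LCN2 (log2 fold change -0.31, adjusted p = 0.0172). Etfdh, an iron-sulphur flavoprotein that passes electrons to ubiquinone, fell by 0.25 (adjusted p = 0.0337), and Sdhb, the iron-sulphur subunit of complex II, rose by 0.20 (adjusted p = 0.0493). Cox15 was not called when control 1 or 3 or LCN2 1 or 3 was left out, and Etfdh and Sdhb were each called in 1 of 6 fits that left out a library, the one without LCN2 2. With no filter on low values Ciao2b, Etfdh and Sdhb were not called either (adjusted p = 0.0571, 0.0564 and 0.0728), nor was Sdhb without a variance trend (0.0696) or when genes down to a mean of 0.1 FPKM were tested (0.0531). Sdhb was not called under any of the 4 other scalings (adjusted p of up to 0.124). Exons of Cox15 overlap those of Cutc and Entpd7, and exons of Etfdh those of 4930579G24Rik.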
